A study of Schizosaccharomyces pombe with 24 samples.

Results

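The genes described here are the 10 core autophagy genes of fission yeast (Schizosaccharomyces pombe) that are named atg1, atg2, atg3, atg5, atg6, atg7, atg8, atg9, atg12 and atg13. The set is defined by gene name, with no threshold on measured values, but it was proposed with earlier results of these data known. All 10 were found among the 6877 genes counted in the series. Of the 10 systematic names listed for the set, 9 matched as given, and atg7 was matched by its gene name because its systematic name, SPBC6B1.05c, was listed without the final letter. All 10 passed the filter on low counts.

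RNA was sequenced from cells labelled clr4D, in which clr4 is given as replaced by the NatMX6 drug-resistance cassette, and from wt cells, both labelled as isolate 975 of mating type h+. Clr4 is the H3K9 methyltransferase that builds heterochromatin. Cells of both strains grew at 32 °C in Edinburgh minimal medium with adenine, histidine, leucine, lysine and uracil and were then washed into nitrogen-free medium. Samples were taken 0, 1, 2, 4, 10 and 24 h later. Each strain and time has 2 libraries, which the series calls biological replicates, so there are 12 groups and 24 libraries. The comparisons address how the transcripts respond to nitrogen removal and whether the response differs in clr4D-labelled cells. No culture was moved to fresh medium that kept its nitrogen, so nitrogen loss, transfer and elapsed time cannot be told apart, and all comparisons with 0 h within a strain share the same 0 h libraries.

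Autophagy encloses cytoplasm in a double membrane, the autophagosome, and delivers it to the vacuole, where proteases and other hydrolases recycle it. The Atg1 kinase complex starts the process, a phosphatidylinositol 3-kinase complex with Atg6 marks the forming membrane, Atg9 vesicles and the lipid-transfer protein Atg2 supply lipid, and a pair of ubiquitin-like systems couples Atg8 to that membrane. In fission yeast autophagy is known for supplying amino acids when nitrogen runs out, and TOR complex 1 restrains it while nitrogen is plentiful.

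Reads assigned to genes numbered 637723 to 4427020 per library, with a median of 1436782. The least covered member of a library had between 4 and 106 reads and the most covered had 77 to 1457. Levels are TMM-scaled CPM, reads scaled to a common library size, without division by gene length, so they are compared between samples of a gene and not between genes. The wt 4 h replicate 2 library stood apart, with the fewest gene reads, the lowest TMM scaling factor of 0.695, and 109414 CPM summed over 141 genes named rpl, rps or rpp, against 46566 in wt 4 h replicate 1. The clr4D 0 h replicate 2 library was close to it, with 638879 gene reads and a TMM factor of 0.718. Its sum over the same genes was 241260.5 CPM, against 144049.9 in clr4D 0 h replicate 1. Fits that leave out clr4D 0 h replicate 1 rest on this library alone for the clr4D-labelled 0 h group. Most of these 141 genes encode ribosomal proteins, but the list was filled by symbol only. The clr4 feature itself carried 112 to 427 CPM in the clr4D-labelled libraries and 89.3 to 171 in the wt libraries, and its level passed the test as higher in the clr4D-labelled group at 0, 1 and 24 h. The labels are therefore used here as names only. In bulk RNA, fewer cells that express a gene and less RNA per cell cannot be told apart.

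Within the first hour without nitrogen most of the set rose. In clr4D-labelled cells 9 of 10 members were called higher at 1 h than at 0 h, where 26.4% of the 5664 tested genes were called higher. In wt cells 9 were called higher, where 26.5% of genes were. A gene is called here at an adjusted p under 0.05 in edgeR's quasi-likelihood test. The median log2 difference over the 10 members was 1.50 in clr4D-labelled cells and 1.71 in wt cells, beside 0.00 and 0.01 over all tested genes. TMM scaling itself keeps the all-gene median near 0, so a rise here is relative to the other RNA. Amounts per cell were not measured. In the same hour the mean sum of the 141 genes named rpl, rps or rpp went from 192655 to 21476 CPM in clr4D-labelled cells. In wt cells that sum went from 161730.2 to 20349.8 CPM. The summed level of the set was 1752 and 1844 CPM at 1 h in clr4D-labelled cells against 584 and 579.7 at 0 h, and 1697 and 1614 CPM at 1 h in wt cells against 535 and 537 at 0 h. For all 10 members both libraries at 1 h lay above both at 0 h in each strain, and over all genes 74.8% in clr4D-labelled cells and 75.5% in wt cells had groups that did not overlap in either direction.

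**Figure D1:**
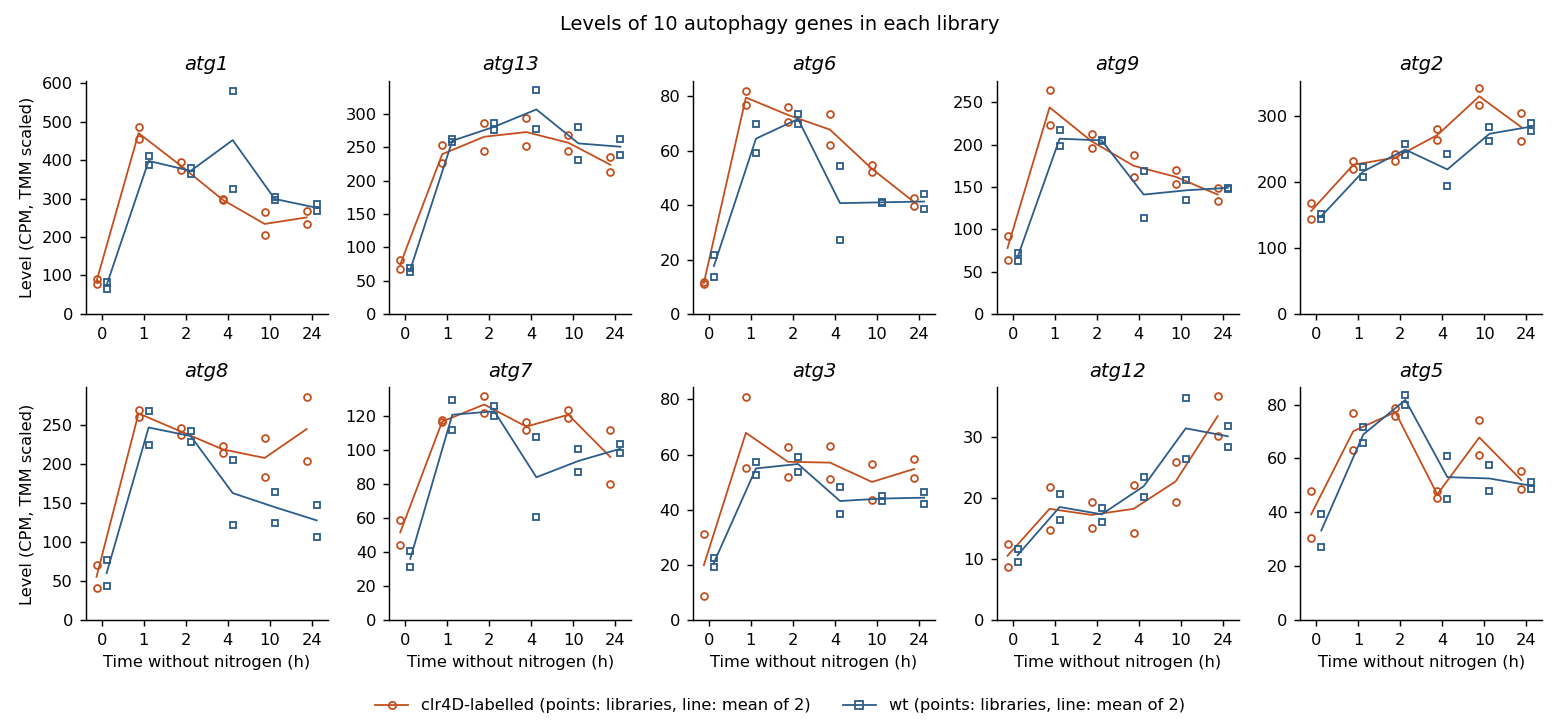
Level of each of the 10 core autophagy genes (vertical axis, TMM-scaled CPM) against time without nitrogen (horizontal axis, hours, evenly spaced), with 1 point per library and a line through the mean of 2; orange circles are clr4D-labelled and blue squares are wt libraries. At 1 h every member lies above its 0 h libraries in both strains, and atg12 is highest late.

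The rise lasted to the end of the series. Called higher against 0 h in clr4D-labelled cells were 9 members at 2 h (26% of all tested genes), 8 at 4 h (24.3%), 10 at 10 h (27.4%) and 10 at 24 h (25.4%). In wt cells the counts were 9 at 2 h (26.4%), 10 at 4 h (25.2%), 10 at 10 h (23.5%) and 10 at 24 h (23.7%). No member was called lower at any time by this test. Of all tested genes, 25.8%, 26.3%, 24.9%, 27.3% and 29.3% were called lower at 1, 2, 4, 10 and 24 h in clr4D-labelled cells, and 26.9%, 27.6%, 25.8%, 26.9% and 28.6% in wt cells. The median log2 difference at 24 h was 1.33 in clr4D-labelled cells and 1.20 in wt cells. The exceptions were atg12, not called at 1 and 2 h in either strain nor at 4 h in clr4D-labelled cells, and atg5, not called at 4 h in clr4D-labelled cells. The wt 4 h count rested on replicate 1. With replicate 2 alone, which leaves 1 library in that group, calls were lost, and with replicate 1 alone none was. The share of all genes called in these fits is not given here. Without wt 4 h replicate 1 the 7 lost calls had log2 differences of 0.39 for atg2, 0.47 for atg5, 0.66 for atg6, 0.77 for atg7, 0.86 for atg3, 0.91 for atg12 and 0.97 for atg8.

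The initiating kinase complex is represented by atg1 (SPCC63.08c), the protein kinase, and atg13 (SPAC4F10.07c), its regulatory subunit. In clr4D-labelled cells atg1 had 78.6 and 91.5 at 0 h, 454 and 486 at 1 h, 375 and 396 at 2 h, 295 and 299 at 4 h, 204 and 265 at 10 h and 234 and 268 at 24 h (CPM of both libraries at each time). In wt cells atg1 had 65.9 and 83.9 at 0 h, 411 and 386 at 1 h, 365 and 380.1 at 2 h, 324 and 579.9 at 4 h, 295 and 303 at 10 h and 285 and 267 at 24 h. The 0 h libraries of each strain were the lowest, the 1 h libraries were the highest in clr4D-labelled cells, and wt 4 h replicate 2 was the highest of all. The log2 difference at 1 h from 0 h was 2.49 ± 0.22 (SE; adjusted p = 9.37e-10) in clr4D-labelled cells and 2.43 ± 0.21 (adjusted p = 9.73e-10) in wt cells. For atg13 the clr4D-labelled libraries gave 67.5 and 80.6 at 0 h, 227 and 253 at 1 h, 245 and 286 at 2 h, 252 and 294 at 4 h, 245 and 269 at 10 h and 213 and 235 at 24 h. The wt libraries of atg13 gave 69.5 and 63.5 at 0 h, 258 and 262 at 1 h, 276 and 287 at 2 h, 277 and 336 at 4 h, 231 and 281 at 10 h and 239 and 263 at 24 h. Unlike atg1, atg13 had starved libraries that stayed within a narrow band after the first hour. Its log2 difference from 0 h was 1.73 ± 0.17 at 1 h and 1.64 ± 0.16 at 24 h in clr4D-labelled cells (adjusted p = 5.48e-09 and 1.04e-08). In wt cells it was 1.96 ± 0.16 at 1 h and 1.91 ± 0.16 at 24 h (adjusted p = 3.2e-10 and 5.79e-10).

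For the lipid kinase step, atg6 (SPAC20G8.10c) encodes the Beclin-type subunit of the phosphatidylinositol 3-kinase complex. In clr4D-labelled cells atg6 had 11.8 and 10.9 at 0 h, 82 and 76.9 at 1 h, 70.4 and 75.9 at 2 h, 61.9 and 73.4 at 4 h, 54.7 and 52 at 10 h and 39.8 and 42.5 at 24 h. In wt cells atg6 had 13.5 and 21.6 at 0 h, 69.9 and 59 at 1 h, 73.5 and 69.6 at 2 h, 54.3 and 27.1 at 4 h, 41.2 and 40.9 at 10 h and 44 and 38.6 at 24 h. Its 0 h libraries were the lowest and its 1 and 2 h libraries held the highest level of each strain, while the wt 4 h replicates lay apart. It rose at 1 h by 2.77 ± 0.29 on the log2 scale in clr4D-labelled cells (adjusted p = 1.85e-08), the largest first-hour step of the 10 there, and by 1.96 ± 0.25 in wt cells (adjusted p = 4.49e-07). The depth behind it was low at 0 h, with 17 and 5 reads in clr4D-labelled libraries and 15 and 18 in wt libraries. The strain difference in that first-hour change was not called for any member (0 of 10, edgeR, and 0 at an unadjusted p under 0.05; DESeq2 also called 0), where 0% of all genes were called.

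On the membrane supply side, atg9 (SPBC15D4.07c) encodes the transmembrane lipid scramblase of the vesicles that seed the autophagosome, and atg2 (SPBC31E1.01c) the lipid-transfer protein that works with it. In clr4D-labelled cells atg9 had 92.5 and 63.2 at 0 h, 223 and 265 at 1 h, 196 and 212 at 2 h, 162 and 188 at 4 h, 170.2 and 154 at 10 h and 134 and 149 at 24 h. In wt cells atg9 had 72.2 and 62.3 at 0 h, 217 and 198 at 1 h, 204 and 206 at 2 h, 169 and 113 at 4 h, 158 and 135 at 10 h and 148 and 149 at 24 h. Its level was highest at 1 to 2 h and lower afterwards in both strains. The log2 difference at 1 h was 1.56 ± 0.18 in clr4D-labelled cells (adjusted p = 8.21e-08) and 1.63 ± 0.18 in wt cells (adjusted p = 3.61e-08). For atg2 the clr4D-labelled libraries gave 144 and 168 at 0 h, 219 and 232 at 1 h, 232 and 243 at 2 h, 279.6 and 263 at 4 h, 343 and 316 at 10 h and 304 and 262 at 24 h. The wt libraries of atg2 gave 144 and 152 at 0 h, 208 and 223 at 1 h, 257 and 241 at 2 h, 243 and 194 at 4 h, 283 and 262 at 10 h and 290.0 and 277 at 24 h. The pair differed in course, since atg2 took a small first step and was higher late than early. At 1 h its log2 difference was 0.56 ± 0.14 in clr4D-labelled cells (adjusted p = 0.00211) and 0.53 ± 0.14 in wt cells (adjusted p = 0.00207). At 10 h it was 1.10 ± 0.14 in clr4D-labelled cells (adjusted p = 2.86e-07) and 0.88 ± 0.13 in wt cells (adjusted p = 8.28e-06). Without clr4D 0 h replicate 1 the atg2 value at 1 h was 0.38, adjusted p = 0.111.

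In the Atg8 system, atg8 (SPBP8B7.24c) encodes the ubiquitin-like protein that is joined to phosphatidylethanolamine on the autophagosome membrane, atg7 (SPBC6B1.05c) the activating enzyme and atg3 (SPBC3B9.06c) the conjugating enzyme. In clr4D-labelled cells atg8 had 70.3 and 41.4 at 0 h, 269 and 260.3 at 1 h, 246 and 238 at 2 h, 223 and 214 at 4 h, 233 and 184 at 10 h and 286 and 204 at 24 h. In wt cells atg8 had 76.7 and 44.4 at 0 h, 268 and 225 at 1 h, 243 and 228 at 2 h, 205 and 122 at 4 h, 164 and 125 at 10 h and 148 and 107 at 24 h. The lowest starved clr4D-labelled library was at 10 h, and the lowest starved wt library was at 24 h. The log2 difference at 1 h was 2.12 ± 0.29 in clr4D-labelled cells (adjusted p = 7.03e-06) and 2.01 ± 0.28 in wt cells (adjusted p = 7.22e-06). At 24 h it was 2.01 ± 0.28 in clr4D-labelled cells (adjusted p = 9.88e-06) and 1.04 ± 0.28 in wt cells (adjusted p = 0.00453). On leaving out wt 0 h replicate 2 the wt value was 0.73 (adjusted p = 0.068).

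The enzyme genes atg7 and atg3 were called higher than at 0 h at every starved time in both strains. For atg7, clr4D-labelled cells gave 44.5 and 58.8 at 0 h, 118 and 117 at 1 h, 122 and 132 at 2 h, 117 and 112 at 4 h, 124 and 119 at 10 h and 80 and 112 at 24 h. Values of atg7 in wt cells were 31.6 and 40.8 at 0 h, 129.5 and 112 at 1 h, 126 and 120.2 at 2 h, 108 and 60.9 at 4 h, 87 and 101 at 10 h and 98.3 and 104 at 24 h. Among the starved wt libraries the lowest was wt 4 h replicate 2, the library with the fewest reads. The log2 difference at 1 h was 1.27 ± 0.23 in clr4D-labelled cells (adjusted p = 4.67e-05) and 1.79 ± 0.22 in wt cells (adjusted p = 2.35e-07). At 24 h it was 0.98 ± 0.21 in clr4D-labelled cells (adjusted p = 0.000378), or 0.70 (adjusted p = 0.0793) if clr4D 0 h replicate 1 is left out, and 1.50 ± 0.21 in wt cells (adjusted p = 3.06e-06). For atg3, clr4D-labelled cells gave 31.3 and 8.72 at 0 h, 80.7 and 55.1 at 1 h, 52 and 62.7 at 2 h, 51.3 and 63 at 4 h, 43.5 and 56.7 at 10 h and 51.4 and 58.3 at 24 h. Values of atg3 in wt cells were 22.6 and 19.2 at 0 h, 52.6 and 57.4 at 1 h, 53.8 and 59.3 at 2 h, 48.1 and 38.4 at 4 h, 45.1 and 43.1 at 10 h and 42.1 and 46.6 at 24 h. The clr4D-labelled replicates lay far apart at 0 h, where they held 45 and 4 reads. The log2 difference of atg3 at 1 h was 1.43 ± 0.29 in clr4D-labelled cells (adjusted p = 0.00021) and 1.36 ± 0.29 in wt cells (adjusted p = 0.000311).

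In the Atg12 system, atg12 (SPAC1783.06c) encodes a ubiquitin-like protein that is joined to Atg5, and atg5 (SPBC4B4.10c) encodes that partner; the conjugate promotes the coupling of Atg8 to lipid. In clr4D-labelled cells atg12 had 12.5 and 8.72 at 0 h, 14.8 and 21.8 at 1 h, 19.5 and 15.2 at 2 h, 22.2 and 14.4 at 4 h, 19.5 and 26 at 10 h and 36.8 and 30.2 at 24 h. In wt cells atg12 had 11.7 and 9.59 at 0 h, 16.5 and 20.7 at 1 h, 18.5 and 16.2 at 2 h, 23.6 and 20.3 at 4 h, 36.5 and 26.5 at 10 h and 28.5 and 31.9 at 24 h. Its highest libraries were at 24 h in clr4D-labelled cells and at 10 to 24 h in wt cells. The log2 difference at 1 h was 0.67 ± 0.39 in clr4D-labelled cells (adjusted p = 0.164, 95% interval -0.13 to 1.48) and 0.70 ± 0.35 in wt cells (adjusted p = 0.0997, 95% interval -0.03 to 1.43). At 24 h it was 1.53 ± 0.31 in clr4D-labelled cells (adjusted p = 0.000189) and 1.48 ± 0.30 in wt cells (adjusted p = 0.000267). Its 0 h libraries held 18 and 4 reads in clr4D-labelled cells and 13 and 8 in wt cells. The clr4D-labelled call at 10 h was lost on leaving out clr4D 0 h replicate 1 (1.33, adjusted p = 0.0835). The value was 0.84 (adjusted p = 0.068) with clr4D 0 h replicate 2 left out, and 0.76 (adjusted p = 0.11) with clr4D 10 h replicate 2 left out. The wt call at 4 h was lost on leaving out wt 0 h replicate 2 (0.94, adjusted p = 0.0637).

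For atg5, clr4D-labelled cells gave 30.6 and 47.9 at 0 h, 63.2 and 76.9 at 1 h, 75.9 and 78.6 at 2 h, 45.5 and 47.9 at 4 h, 74.2 and 61.4 at 10 h and 55.3 and 48.6 at 24 h. Values of atg5 in wt cells were 27.1 and 39.6 at 0 h, 65.9 and 71.8 at 1 h, 79.9 and 83.5 at 2 h, 61 and 45.1 at 4 h, 47.8 and 57.5 at 10 h and 48.6 and 51.2 at 24 h. The 4 h libraries of clr4D-labelled cells overlapped their 0 h libraries, and in wt cells the 2 h libraries were the highest. The log2 difference at 1 h was 0.98 ± 0.23 in clr4D-labelled cells (adjusted p = 0.00106) and 1.05 ± 0.22 in wt cells (adjusted p = 0.000217). At 24 h it was 0.54 ± 0.21 in clr4D-labelled cells (adjusted p = 0.0358, or 0.0691 by DESeq2) and 0.61 ± 0.21 in wt cells (adjusted p = 0.0168). Several calls rested on 1 library. Without clr4D 0 h replicate 1 the log2 difference in clr4D-labelled cells was 0.50 at 1 h, 0.66 at 2 h, 0.49 at 10 h and 0.11 at 24 h, and none was called. Without wt 0 h replicate 1 it was 0.52 at 4 h, 0.36 at 10 h and 0.34 at 24 h in wt cells, and none was called. The 24 h call was also lost in clr4D-labelled cells without clr4D 24 h replicate 1 (0.45), and in wt cells when wt 24 h replicate 2 was left out (0.57). The wt 10 h call was lost when wt 10 h replicate 2 was left out (0.55).

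The members did not hold their first-hour levels alike. Between 24 h and 1 h, atg6, atg1 and atg9 fell in clr4D-labelled cells, by 0.95 ± 0.20, 0.91 ± 0.18 and 0.79 ± 0.15 on the log2 scale (adjusted p = 0.000496, 0.000407 and 0.000271). There atg12 and atg2 rose by 0.86 ± 0.29 and 0.33 ± 0.13 (adjusted p = 0.0206 and 0.0481). In wt cells atg8, atg6, atg1, atg9 and atg5 fell, by 0.97 ± 0.24, 0.69 ± 0.18, 0.53 ± 0.18, 0.49 ± 0.15 and 0.44 ± 0.17 (adjusted p = 0.00296, 0.00315, 0.02, 0.00982 and 0.0404). In these cells too atg12 and atg2 rose, by 0.78 ± 0.25 and 0.40 ± 0.13 (adjusted p = 0.0142 and 0.013). These are 2 higher and 3 lower of 10 in clr4D-labelled cells, where 18.1% of all genes were called higher and 22.9% lower. In wt cells they are 2 higher and 5 lower, where 20.7% were called higher and 23.3% lower. The genes named rpl, rps or rpp, mostly for ribosomal proteins and a sign of growth, moved over the same interval. Of these 141 genes, 97 rose in clr4D-labelled cells and 131 in wt cells, and their part in these values was not tested. DESeq2 did not call atg12 in either strain (adjusted p = 0.0521 in clr4D-labelled cells and 0.0634 in wt cells), nor atg5 in wt cells (adjusted p = 0.15). The calls also depended on single libraries. Each of these fits leaves 1 library in a group, and the share of all genes called in them is not given here. In clr4D-labelled cells 3 members, atg6, atg1 and atg9, were called when clr4D 1 h replicate 1 or clr4D 24 h replicate 1 was left out. The atg2 call was lost without clr4D 1 h replicate 2 (0.40, adjusted p = 0.0768), and atg7 was called when clr4D 24 h replicate 2 was left out (-0.55, adjusted p = 0.0426). In wt cells 0 of 10 were called without wt 1 h replicate 1, 4 without wt 24 h replicate 1, 3 without wt 24 h replicate 2, and 5 without wt 1 h replicate 2, where atg1 (-0.54) and atg5 (-0.36) were lost. Scaling by library totals moved the median of all genes by 0.45 in clr4D-labelled cells and 0.35 in wt cells. On that scale 3 members were called higher and 1 lower in clr4D-labelled cells, where atg13 was at 0.36 instead of -0.10. In wt cells 2 were called higher and 0 lower on it. The share of all genes called on that scale is not given here.

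**Figure D2:**
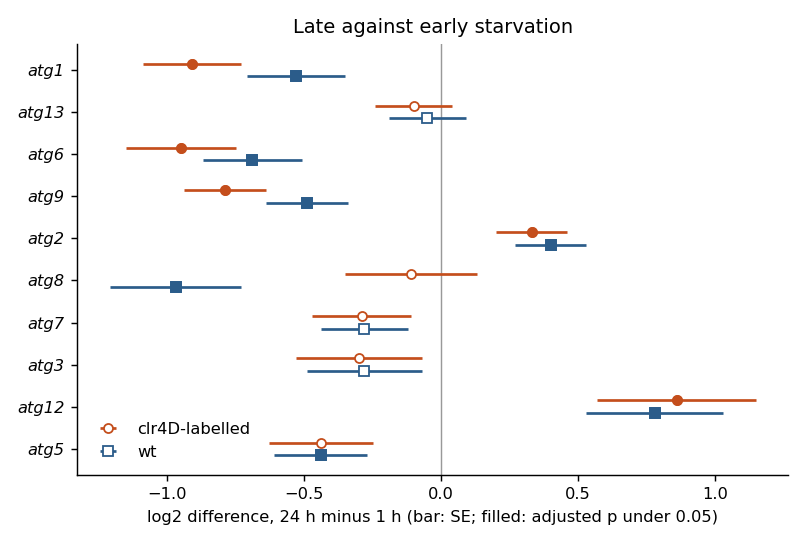
Log2 difference of each member between 24 h and 1 h without nitrogen (horizontal axis, 24 h minus 1 h), with bars for the standard error; orange circles are clr4D-labelled and blue squares are wt cells, and filled symbols have an adjusted p under 0.05. atg12 and atg2 lie to the right of 0 in both strains, and atg1, atg6 and atg9 to the left.

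The members' courses correlated over all groups, and less so over the starved groups. Over the 12 group means Pearson's r of log2 levels over the 45 pairs of members ranged from 0.30 (atg5 with atg12) to 0.98 (atg3 with atg8), with a median of 0.87. Over the 10 starved groups alone it ranged from -0.95 to 0.95 with a median of 0.09. On those 10 groups atg9 had r = 0.93 with the mean of the other members, atg6 0.90, atg3 0.86, atg7 0.79, atg8 0.75, atg5 0.74, atg1 0.25, atg13 -0.18, atg2 -0.47 and atg12 -0.86. These are descriptions over group means that share libraries and scaling. Of 5654 tested genes outside the set, 284 had an r over 0.9 with the mean course of the members over the 12 groups. The closest were bit2 (r = 0.993), gid2 (0.992), which encodes a subunit of the GID ubiquitin ligase, bxi1 (0.990), of the BAX-inhibitor family, ctl1 (0.989), a membrane protein that binds Atg9, and the non-coding RNA SPNCRNA.834 (0.988).

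Between the strains few members were called. At 0, 1 and 2 h, 0 of 10 were called in clr4D-labelled against wt cells by edgeR, with 0 at an unadjusted p under 0.05 at each of these times and 0 called by DESeq2, where 0.23%, 0.671% and 1.55% of all genes were called. At 1 and 2 h the 95% interval of the log2 difference lay within 1 of 0 for all 10 members, and at 0 h for 8. The summed member level was 1752 and 1844 CPM at 1 h in clr4D-labelled libraries against 1697 and 1614 in wt libraries. At 10 h, 0 members were called where 23.9% of all genes were, with 4 at an unadjusted p under 0.05 and 0 called by DESeq2. Those 4 were atg5 (log2 difference 0.42 ± 0.18), atg7 (0.40 ± 0.17) and atg2 (0.27 ± 0.13), with the higher levels in clr4D-labelled cells, and atg12 (-0.56 ± 0.25), with adjusted p of 0.0955, 0.0991, 0.122 and 0.106. The most positive difference of the 10 was that of atg8, 0.51 ± 0.24 (adjusted p = 0.144). With replicate number added to the edgeR fit, atg8 was called at 10 h (0.52 ± 0.16, adjusted p = 0.0148).

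At 4 h, 1 member was called, atg1, which was lower in clr4D-labelled cells, where 9.82% of all genes were called lower and 15% in all. Its log2 difference was -0.55 ± 0.19 (adjusted p = 0.0485). The libraries had 295 and 299 CPM in clr4D-labelled cells and 324 and 579.9 in wt cells, with 1 wt library far above the other. On leaving out wt 4 h replicate 2 the difference was -0.12 (adjusted p = 0.722). It was -0.54 (adjusted p = 0.197) when clr4D 4 h replicate 1 was left out and -0.56 (adjusted p = 0.15) when clr4D 4 h replicate 2 was. DESeq2 gave -0.53 (adjusted p = 0.0932). Leaving out wt 4 h replicate 1 leaves only the library that stood apart in that group. In that fit atg1 was again lower in clr4D-labelled cells. The members whose call changed had log2 differences of 1.33 for atg6, 0.91 for atg7, 0.64 for atg9 and 0.48 for atg2. These values rest on 1 wt library.

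At 24 h, 1 member was called, atg8, which was higher in clr4D-labelled cells, where 5.63% of all genes were called higher and 8.79% in all. Its libraries had 286 and 204 CPM in clr4D-labelled cells and 148 and 107 in wt cells. The log2 difference was 0.94 ± 0.23 (adjusted p = 0.0138, 95% interval 0.46 to 1.43). It was 0.68 when clr4D 24 h replicate 1 was left out, and 0.73 when wt 24 h replicate 2 was, and the call was lost in both fits. Each of these fits leaves 1 library in a group. In every group atg8 was higher in replicate 1 than in replicate 2. No label ties same-numbered libraries to each other, and the part of replicate number in the lost calls was not tested. The strain difference in the change from 0 h to 24 h was 0.97 ± 0.40 for atg8 (adjusted p = 0.403), and 0 of 10 members were called for that change, with 1 at an unadjusted p under 0.05 and 0 by DESeq2, where 0.971% of all genes were called. The test of any strain difference over the course called 0 of 10, with 0 at an unadjusted p under 0.05 and 0 by DESeq2, where 6.87% of all genes were called. With replicate number added to the edgeR fit, atg8 was called for the course (adjusted p = 0.0278). Leaving out wt 4 h replicate 1, which leaves 1 library in that group, changed the outcome for atg1 and atg6.

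**Figure D3:**
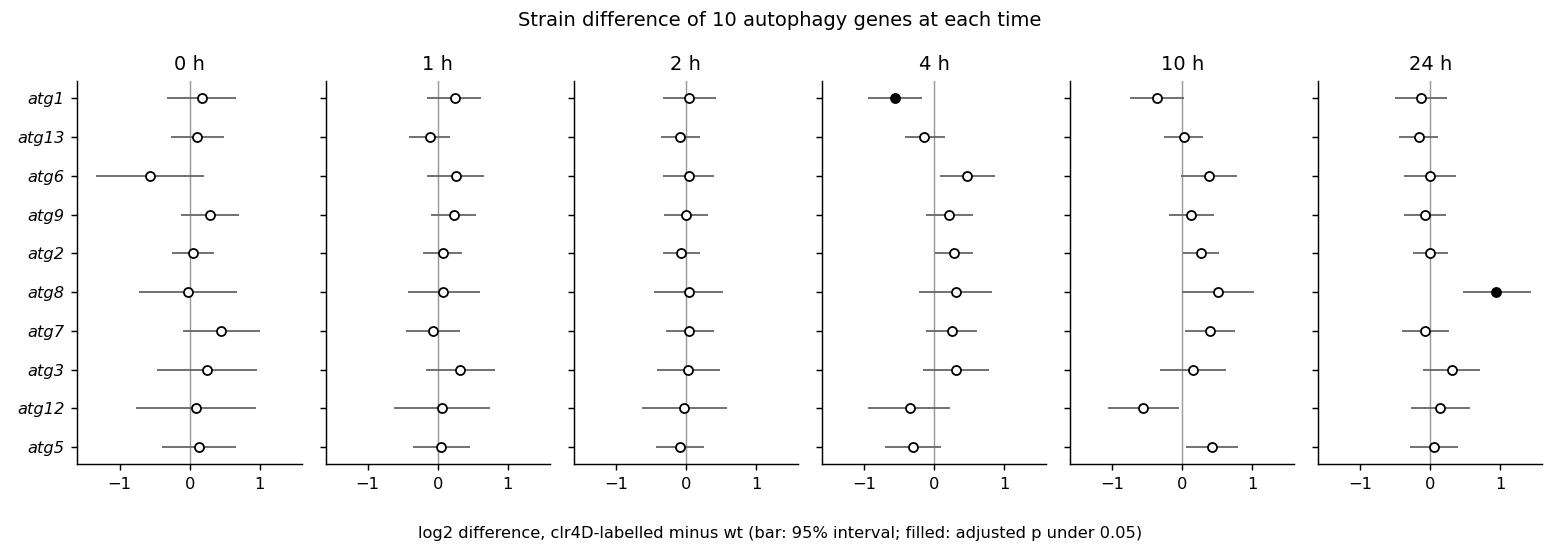
Log2 difference of each member between the strains (horizontal axis, clr4D-labelled minus wt) at each time without nitrogen, 1 panel per time, with bars for the 95% interval and filled symbols for an adjusted p under 0.05. The filled symbols are atg1 at 4 h (-0.55) and atg8 at 24 h (0.94).

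The clr4D-labelled libraries differed from wt in genes of other cell states, for some mating genes already at 0 and 1 h. Of the 6 M-cell genes, of the mating type opposite to h+, 1 was called higher at 0 h and 2 at 1 h. Over all genes 0.23% and 0.671% were called at these times. The 6 M-cell genes summed to 328 and 415 CPM in clr4D-labelled libraries against 185 and 175 in wt libraries at 1 h. At 2 h they summed to 2637 and 2575 CPM against 184 and 230.2. They summed to 8564 and 8143 against 199.8 and 185 at 4 h, and to 4084 and 4786 against 175 and 164 at 24 h. The 3 P-cell genes summed to 321 and 327 CPM in clr4D-labelled libraries against 135 and 169 in wt libraries at 1 h, where 0 of the 3 were called. Their sums were 1437 and 992 CPM against 199 and 251 at 2 h, and 4845 and 3232 against 716 and 945 at 4 h. The 141 genes named rpl, rps or rpp summed to 33115 and 36552 CPM against 46566 and 109414 at 4 h, and to 24586 and 28788 against 47987 and 42936 at 10 h. The 15 genes of middle meiosis and spore formation summed to 17707 and 8536 CPM in clr4D-labelled libraries against 332 and 381 in wt libraries at 10 h, and to 15261 and 7916 against 410.4 and 426 at 24 h. Most of each clr4D-labelled sum of the 15 genes came from 1 gene, isp3. It had 11773 and 5424 CPM at 10 h and 14593 and 7222 at 24 h. Between the strains 15 of the 15 genes passed the test at 10 h and 9 at 24 h. Of all genes 23.9% and 8.79% did. The median log2 difference over the 15 genes was 5.34 at 10 h and 1.63 at 24 h. The part of all these gene lists in the strain differences of the members was not tested.

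Of 23 other autophagy genes, 20 rose at 1 h in clr4D-labelled cells and 21 in wt cells, where 26.4% and 26.5% of all genes were called higher, and 0 were called lower in either strain. Their values gave a median log2 difference of 1.36 in clr4D-labelled cells and 1.18 in wt cells. At 24 h, 17 were called higher in clr4D-labelled cells and 18 in wt cells, where 25.4% and 23.7% of all genes were. The largest first-hour rises in wt cells were of nbr1 (2.82 ± 0.16), a receptor that sends hydrolases to the vacuole, and the sorting nexins atg20 (2.64 ± 0.20) and atg2402 (2.40 ± 0.23). The smallest called there were atg11 (0.40 ± 0.15), which encodes an activator of Atg1, hfl1 (0.48 ± 0.18), a vacuole membrane protein that binds Atg8, and atg44 (0.78 ± 0.19), a mitochondrial fission factor for mitophagy. The 2 not called in wt cells were atg1803 and atg38, named here after their values were seen. Between the strains, 0 of the 23 were called at 0, 1, 2, 4 and 24 h, with 1, 1, 0, 3 and 1 at an unadjusted p under 0.05, and 2 at 10 h, where 23.9% of all genes were called: hfl1 at -0.77 ± 0.16 (adjusted p = 0.00102) and nbr1 at -0.36 ± 0.13 (adjusted p = 0.049), both lower in clr4D-labelled cells.

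**Figure D4:**
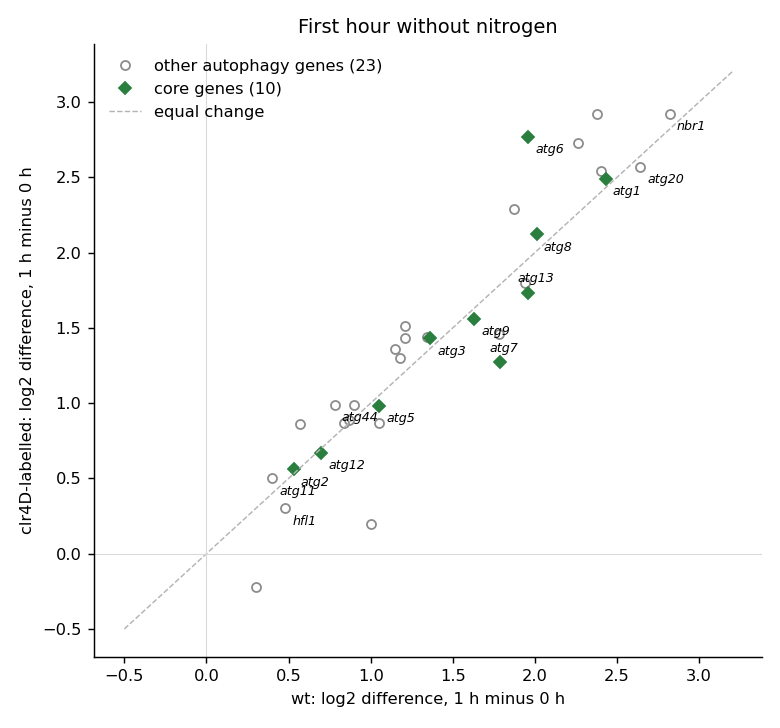
Log2 difference between 1 h and 0 h without nitrogen in clr4D-labelled cells (vertical axis) and in wt cells (horizontal axis) for the 10 core genes (green diamonds) and 23 other autophagy genes (open circles), with a dashed line where both are equal. All 10 core genes lie above 0 in both strains, from 0.56 to 2.77 in clr4D-labelled cells and from 0.53 to 2.43 in wt cells.

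A further list held 8 genes for proteases and other hydrolases, most of them vacuolar or carried by the Nbr1 route to the vacuole. Of these 8, which include yps1, 7 rose at 1 h in each strain and 0 fell, beside the 26.4% and 26.5% of all genes called higher. In wt cells the serine protease genes isp6 and psp3 rose by 5.48 ± 0.32 and 2.69 ± 0.18 on the log2 scale, and cpy1, for carboxypeptidase Y, by 1.48 ± 0.23. The smallest rises called there were of lap2 (1.21 ± 0.13) and ape4 (1.10 ± 0.15), both for aminopeptidases, and ams1 (1.12 ± 0.16), for alpha-mannosidase. At 10 h, ams1 was called higher in clr4D-labelled than in wt cells (0.44 ± 0.15, adjusted p = 0.0376).

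Of 31 genes of the TOR complexes and nutrient signalling, 12 rose and 2 fell at 1 h in clr4D-labelled cells, and 11 rose and 2 fell in wt cells. Of all genes 26.4% were called higher and 25.8% lower in clr4D-labelled cells, and 26.5% higher and 26.9% lower in wt cells. The largest rises in wt cells were of gtr2 (1.49 ± 0.20) and gtr1 (0.82 ± 0.20), for Rag GTPases that act on TOR complex 1, and tsc1 (1.18 ± 0.15), for a subunit of its inhibitor, and the smallest called was iml1 (0.35 ± 0.14), for a subunit of the GATOR complex. The TOR complex 2 subunit genes bit61 (-1.36 ± 0.24) and sin1 (-0.57 ± 0.16) fell. At 10 h psk1, for an S6 kinase, was called higher in clr4D-labelled cells (1.06 ± 0.18, adjusted p = 0.000123), and the transcription factor genes fil1 (-0.80 ± 0.23, adjusted p = 0.0146) and gaf1 (-0.51 ± 0.17, adjusted p = 0.035) were called lower there.

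Counting could mix a member with a neighbour, since the strand setting of the counting is not given in the sources used here although the libraries are labelled directional. Reads on several counted features (0.95 to 1.41%) were left out, so an overlap could also cost a member reads. In the annotation of another build, atg1, atg13, atg8, atg7, atg3, atg12 and atg5 each overlap a protein-coding gene on the opposite strand, and atg9 overlaps SPBC15D4.08c on the same strand. Non-coding RNAs on the opposite strand overlap atg2 and atg6, and also atg1, atg13, atg8, atg3, atg12 and atg5. The part of these RNAs in the member counts was not tested. The partners bud22 of atg13, hrp1 of atg12, prp39 of atg5, mde4 of atg7 and hot15 of atg3 fell at 1 h in both strains, with log2 differences from -1.91 to -0.73 in clr4D-labelled cells and from -1.51 to -0.69 in wt cells, while their members had positive ones. The neighbour of atg9, SPBC15D4.08c, had a log2 difference at 1 h of 2.32 in clr4D-labelled cells (adjusted p = 0.00188) and 0.66 in wt cells (adjusted p = 0.268), and its part in the atg9 counts was not tested. At 10 h between the strains mde4, the partner of atg7, was called higher in clr4D-labelled cells (0.97, adjusted p = 0.00564), where atg7 was at 0.40. There hrp1, the partner of atg12, was called lower (-0.44, adjusted p = 0.0072), where atg12 was at -0.56, and the part of both partners in the member counts was not tested. The partner of atg1, thg1, was not called at 1 h (-0.77 in clr4D-labelled and -0.30 in wt cells). The partner of atg8, rnf10, rose with it, by 1.05 in clr4D-labelled cells (adjusted p = 9.58e-07) and 1.28 in wt cells (adjusted p = 2.24e-08), and its part in the atg8 counts was not tested.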

How the data were processed

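Directional, rRNA-depleted RNA libraries (per the labels) were sequenced from 2 strains at 6 times with 2 replicates each. Per the submitters' processing notes, TopHat2 2.0.8, HTSeq 0.6.1 and the ASM294v2 build were used. The annotation release is not given in the sources used here, nor is the strand setting of the counting. The authors deposited raw read counts per annotated feature, without normalization. Gene reads numbered 637723 to 4427020 per library, and intervals and read numbers here cover counting error and the spread between replicates only. That spread was pooled over the 12 groups and moderated across genes. An interval therefore does not show how far apart the 2 libraries of a given group lay. Reads aligned to several places (5.43 to 12.37%), to no feature (2.09 to 5.14%) or to several features (0.95 to 1.41%) were left out of library sizes and tests.

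Counts of transcripts of one gene were summed (6878 features, 6877 genes), and 6705 genes were named from an annotation of another build, used for names and overlapping neighbours only. That build does not match the files, so no sequences, positions or lengths are given, and a planned search for promoter motifs was not run. edgeR 4.0.16 in R 4.3.3 (limma 3.58.1) fitted 12 group means to all 24 libraries after filterByExpr (5664 genes tested, 1213 left out) with TMM factors and a robust quasi-likelihood F test, Benjamini-Hochberg adjusted over all tested genes and called at 0.05. Standard errors are the log2 difference over the square root of F. The fit had 12 residual degrees of freedom and a common biological coefficient of variation of 0.122. The fit was tested on simulated counts.

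The members, the other gene lists and the tests were chosen with earlier results of these data known. Named genes were all members and, from each other list, the 3 largest and 3 smallest differences of wt 1 h against 0 h among called genes, and the 3 most negative and 3 most positive called differences of clr4D against wt at 10 h; the 5 genes most like the members by Pearson's r are also named. Of the other autophagy names, atg2201, atg2202, atg2401, atg2403 and yep1 were not matched. Alternatives were DESeq2 1.42.0 (its test and its size factors), library totals, upper quartile factors, no count filter, a replicate block and leaving out libraries.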

Additional observations from a re-analysis of the deposited data

How the results depend on the processing

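Counts of the 10 members called moved by over 1.5 times as follows. For clr4D against wt at 4 h (1 called), 0 were called with DESeq2, with DESeq2 size factors, with upper quartile factors and without replicate 2 of both wt 0 h and wt 4 h, and 2 with library totals. For wt 24 h against 1 h (7 called), library totals gave 2. Leaving out 1 library gave 9 to 9 for wt 1 h and for wt 2 h against 0 h, 3 to 10 for wt 4 h, 9 to 10 for wt 10 h and 24 h, 7 to 9 for clr4D 1 h, 8 to 9 for clr4D 2 h, 8 to 8 for clr4D 4 h, and 8 to 10 for clr4D 10 h and 24 h. It gave 0 to 0 for clr4D against wt at 0, 1, 2 and 10 h, 0 to 5 at 4 h and 0 to 1 at 24 h, 0 to 5 for wt 24 h against 1 h, 3 to 6 for clr4D 24 h against 1 h, 0 to 2 for the course and 0 to 0 for both strain differences in change. The cause was not tested, and the shares of all genes called under these settings are not given here. Among single members, atg13 in clr4D 24 h against 1 h reversed with library totals (0.36, adjusted p = 0.049). Of 210 values, 205 kept direction and call with DESeq2, 196 with library totals, 208 with upper quartile factors and 210 without the filter. The replicate numbers were not taken to pair the samples in the main fit, because no label ties same-numbered libraries to each other. Over 66 pairs of groups the deviations of same-numbered libraries correlated over 0.1 in 23 and under -0.1 in 0 (-0.077 to 0.333, median 0.078). Same-numbered libraries thus deviated together in part, and atg8 was higher in replicate 1 than in replicate 2 in every group. With the replicate block 1 member, atg8, was called at 10 h between strains (0.52, adjusted p = 0.0148) and 1, again atg8, for the course (adjusted p = 0.0278), and no other call changed. The members with the fewest reads, such as atg12 with 4 to 106, limit what could be detected at 0 h.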
